A study of Oryza sativa with 3 samples.

Results

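The miR166 family was represented by 39 probes among 42477 probes of a rice array, controls left out. A probe belonged to the family if its name began with osa-miR166 and a letter. These names gave 13 family members, lettered a to i and k to n, each with 1 probe of each of 3 types, which the last field of the name calls Mature, 5'seq and 3'seq. Each probe was printed as 2 spots on every array, and the spots were averaged. The study compared roots of 6-day-old rice seedlings of cultivar TN-67 (Oryza sativa) exposed to 1 mM vanadium with roots of seedlings of the same age and cultivar exposed to water. Each of 3 arrays carried the vanadium RNA of 1 biological replicate, labelled with Cy5 (red), and the water RNA of the same replicate number, labelled with Cy3 (green). The dyes were never swapped, so a dye effect of a single probe has the same sign on every array and cannot be told apart from the treatment. The labels do not give the exposure time, or the number of seedlings behind a replicate.

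MicroRNAs are small regulatory RNAs cut from a stem-loop in a longer primary transcript by a Dicer-like enzyme and loaded into an Argonaute protein. In plants miR166 directs the cleavage of transcripts of the class III homeodomain-leucine zipper (HD-ZIP III) factors, which set leaf polarity and the pattern of vascular tissue. In Arabidopsis roots it is known to move from the ground tissue into the stele, where it patterns the xylem. As general background, members a, b, c, d, f and n encode the same mature miR166, while the mature forms of the other members differ from it by single or few bases. The array files give no probe sequences, so none are shown here, and it was not tested whether probes share a sequence. The labels describe column-purified total RNA amplified to cRNA and mention no isolation of small RNA. Whether a probe named Mature reads the small RNA or a longer transcript that contains it cannot be told from the files.

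Members of the family differed in which of their probes were detected. Detection is a flag of the scanner software, taken here as at least 1 spot of the probe well above background on an array. Of the 39 probes, 20 were detected on all 3 arrays in the water channel and 19 of these 20 also on all 3 arrays in the vanadium channel. The exception was the 3'seq probe of member b, which was detected in no vanadium channel. Another 5 probes were detected on some arrays only, and 14 on no array in either channel. Dye and treatment go together in these channels, and the counts therefore make no comparison of treatments.

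Among the Mature probes, 6 of 13 were detected on all arrays in both channels, and these were members a, b, c, d, f and n, the ones described above as encoding the same mature miR166. The Mature probes of e, i, k, l and m were detected on no array. Those of g and h were each detected on 1 array, in both channels, which was replicate 1 for g and replicate 2 for h. At g and h no array had both spots of the Mature probe well above background. Not detected means a signal near background and does not show that the RNA was absent.

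Among the 5'seq probes, 8 of 13 were detected on all arrays in both channels, those of a, c, e, g, h, k, l and m. The 5'seq probe of b was detected on 2 arrays in water and 1 in vanadium, and those of d and i on 1 array in water only. Among the 3'seq probes, 5 of 13 were detected on all arrays in both channels, those of a, c, g, h and n. Members a and c were therefore the only ones with all 3 probe types detected in both channels throughout. Members e, g, h, k, l and m had a 5'seq probe detected throughout without such a Mature probe, and members b, d, f and n had the reverse. Of the 471 probes of other osa-miR families, 30.6% were detected on all arrays in at least 1 channel, against 51.3% of the miR166 probes and 72.8% of all probes.

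The 14 probes detected on no array had vanadium signals of 4.59 to 18.4 and water signals of 4.63 to 27.4. Signal here is the background-subtracted and dye-normalized intensity of the scanner software, averaged over both spots. By array, the 6 detected Mature probes had water signals of 104 to 150.5 on replicate 1, 148 to 191 on replicate 2 and 233 to 541 on replicate 3. Their vanadium signals were 50.2 to 113, 98.9 to 114 and 142 to 435. On each array the probe's vanadium signal was below its water signal at all 6 members. In water, the ranges of the 3 arrays did not overlap except on replicates 1 and 2, where 150.5 was the highest value on replicate 1 and 148 the lowest on replicate 2. The signals are not normalized between arrays, and array differences in level were not tested.

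Relative to water, the Mature probes of the 6 detected members fell under vanadium. None rose (0 of 6 in limma, and 0 at an unadjusted p under 0.05). Their log2 ratios of vanadium over water lay between -0.42 and -0.25, with a median of -0.33, which corresponds to falls of 1.19-fold to 1.34-fold. The log2 ratios come from median spot signals with background correction and loess, and were tested with limma over 30809 probes detected throughout in at least 1 channel, with Benjamini-Hochberg adjusted p under 0.05 as the threshold. Of all these probes 28.9% were called higher and 21.3% lower, and their median was 0.01. The scanner software's own log ratio moved that median by -0.14 and split the calls the other way, with 41.1% of all called probes higher in place of 57.6%. Taken relative to the median of all probes on that scale, the 6 Mature probes lay between -0.72 and -0.39.

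The Mature probe of member d had log2 ratios of -0.37, -0.41 and -0.48 on replicates 1, 2 and 3, with a mean of -0.42 ± 0.08 (SE, n = 3 arrays, limma adjusted p = 0.00488). That of f had -0.43, -0.39 and -0.39, with a mean of -0.40 ± 0.08 (adjusted p = 0.00548). Here and throughout, SE is the moderated SE of limma, which draws on the variances of all rows in the fit. It does not give the spread of the 3 ratios of a probe, whose standard deviation was 0.02 at f. For a the ratios were -0.42, -0.32 and -0.32, with a mean of -0.35 ± 0.08 (adjusted p = 0.0102). All 18 ratios of the 6 probes on the 3 arrays were below 0, so no array went against the others.

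For b the Mature ratios were -0.37, -0.31 and -0.25 and the mean was -0.31 ± 0.08 (adjusted p = 0.0169). For n they were -0.27, -0.24 and -0.28 and the mean was -0.26 ± 0.08 (adjusted p = 0.0267). Member c had the smallest fall, with -0.17, -0.25 and -0.34 and a mean of -0.25 ± 0.08 (adjusted p = 0.0379). The 6 probes may read the same molecule, so they are not 6 separate observations of a fall. Of 36 Mature probes of other families that were tested, 6 were called higher and 1 lower, with a median log2 ratio of 0.13. The difference between miR166 and these families was not tested.

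These falls were small in the main fit, and their calls did not all withstand other settings. With the 6 channels fitted without the pairing by array, 0 of the 6 Mature probes were called lower (also 0 at an unadjusted p under 0.05), and with median centring in place of loess 2 were. Leaving out replicate 2 left 3 calls and leaving out replicate 3 left 2, where fewer arrays make the test less sensitive. The direction held at all 6 in every alternative run, but most of these runs could not have changed it. Other filters, outlier spots kept, no pairing and slide as a block return the same estimates. Leaving out a replicate averages ratios that were all below 0. The scanner software's ratio, which the authors' value table repeats, an offset of 0 and median centring could have changed the direction.

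The 5'seq probes did not move one way. Of 8 tested, those of m, h, e and c rose, those of a and g fell, and those of k and l did not pass the test. The shares were 50% higher and 25% lower, against 28.9% and 21.3% of all probes. Of 53 tested 5'seq probes of other families, 22.6% were higher and 28.3% lower. The share called lower was thus near both, and the differences in share were not tested. The median log2 ratio of the 8 miR166 probes was 0.22, with a range of -0.49 to 0.67.

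Member m had the largest rise of the family. Its 5'seq probe had vanadium signals of 1097, 672 and 624 and water signals of 762, 433 and 423 on replicates 1, 2 and 3. Vanadium was higher than water on each array, with log2 ratios of 0.65, 0.74 and 0.62. The mean was 0.67 ± 0.08 (SE, n = 3 arrays, limma adjusted p = 0.000718), a 1.59-fold rise. The Mature and 3'seq probes of m were detected on no array, so this rise rests on 1 probe.

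The 5'seq probe of h had vanadium signals of 1360, 766 and 994 and water signals of 1062, 638 and 820. Its log2 ratios were 0.48, 0.30 and 0.33, with a mean of 0.37 ± 0.08 (adjusted p = 0.0101). That of e had ratios of 0.41, 0.23 and 0.31 and a mean of 0.32 ± 0.08 (adjusted p = 0.0177). That of c had ratios of 0.29, 0.40 and 0.22 and a mean of 0.30 ± 0.08 (adjusted p = 0.0202). The 4 rises had the same sign on all arrays. Without the pairing by array none of the 4 was called in limma (1 5'seq probe was higher at an unadjusted p under 0.05), with median centring only that of m was, and without replicate 3 only 2 were. The scanner software's ratio and the authors' value table did not call that of c (limma adjusted p = 0.122 and 0.120). Nor was that of c called without replicate 2, or that of e without replicate 1.

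Of the 5'seq probes that fell, that of a had vanadium signals of 45.8, 21.9 and 37.8 and water signals of 92.5, 73.4 and 74.8. The vanadium and water signals did not overlap, and the log2 ratio was -0.49 ± 0.09 (SE, n = 3 arrays, adjusted p = 0.00415). The 5'seq probe of g had ratios of -0.23, -0.30 and -0.32, with a mean of -0.29 ± 0.08 (adjusted p = 0.0211). The 5'seq probes of l and k had mean log2 ratios of 0.14 ± 0.08 (adjusted p = 0.195) and 0.09 ± 0.09 (adjusted p = 0.417). For k the sign differed between arrays, at 0.19, -0.06 and 0.14.

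Of 5 3'seq probes tested with both channels detected throughout, those of a and g fell and those of c, h and n did not pass the test. That of b, kept through its water channel alone, is described separately and enters neither this count nor the median. None rose by limma's adjusted p, and 1, that of n, was higher at an unadjusted p under 0.05. The median log2 ratio of these 5 was -0.07. Their share called lower was 40%, against 22.6% of all probes with both channels detected throughout.

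Among probes detected in both channels, the 3'seq probe of a gave the largest change of the family. Its vanadium signals were 409, 203 and 259 on replicates 1, 2 and 3, against water signals of 723, 646 and 735. Every vanadium signal was below every water signal. The log2 ratios were -0.60, -1.26 and -1.15, with replicate 1 the smallest, and their mean was -1.004 ± 0.14 (moderated SE, n = 3 arrays, limma adjusted p = 0.00135). Their standard deviation was 0.35. The mean is a 2.01-fold fall. It was called in all 12 alternatives, with values from -1.33 to -0.88, and so was the fall of the 5'seq probe of a, with values from -1.26 to -0.41.

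The 3'seq probe of g had ratios of -0.41, -0.31 and -0.32 and a mean of -0.35 ± 0.08 (adjusted p = 0.0101). The 3'seq probe of b passed the filter through its water channel alone, so it had to differ, and its ratio is given as a description. Its water signals were 48.3, 41.2 and 41.2, and on no array did a vanadium spot stand well above background, so its level there is a bound and no fold change is given. Its log2 ratio was -0.40 in the fit, -0.69 with an offset of 0 in place of 50 and -1.72 by the scanner software's own ratio, which also differs in background correction and normalization.

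The 3'seq probe of c had log2 ratios of 0.29, 0.36 and -0.03, with a mean of 0.21 ± 0.10 (adjusted p = 0.127). That of n had 0.40, 0.09 and 0.18, with a mean of 0.22 ± 0.09 (adjusted p = 0.0854). That of h was at -0.07 ± 0.08 (adjusted p = 0.492), but at -0.38 and called lower by the scanner software's ratio and by the authors' value table (limma adjusted p = 0.0254 in both). For n, both channels were brightest on replicate 1, with water signals of 374, 153 and 73.3 and vanadium signals of 436, 143 and 85.2. At n the vanadium signal was above water on replicates 1 and 3 and below it on replicate 2, while the normalized ratio was above 0 on all 3.

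Over all types, 11 of the 20 tested probes were called lower, 4 higher and 5 neither, where the 11 include the 3'seq probe of b. With both channels required to be well above background on all arrays, 10 of 19 fell and 4 rose. The shares were then 52.6% lower and 21.1% higher, against 22.6% and 26.6% of all 28087 probes tested under that filter. Since 6 of the 10 lower calls come from Mature probes that may share a target, these shares describe the probes on the array and not independent transcripts. Of 143 tested probes of other osa-miR families, 33 (23.1%) were higher and 29 (20.3%) lower, by the filter that admits a probe through 1 channel. By that filter 28.9% of all probes were higher and 21.3% lower.

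Probes of 1 family member could differ in direction. For each member with 2 probe types tested, the difference in log2 ratio between the types was taken on each array and fitted with limma over all 50 such pairs of osa-miR members on the array. This test was added after the ratios had been seen. The miR166 family gave 10 pairs from 6 members, and 6 of these differed (adjusted p under 0.05), while 38.0% of all 50 pairs did. The pair at b, which holds the 3'seq probe kept through its water channel alone, was not among these 6. With both channels required to be well above background, 6 miR166 pairs were again called, but that filter leaves the differences unchanged. An offset of 0 gave 4 called pairs, and median centring gave 5. The scanner software's ratio also gave 5, including the pair at b.

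Member c showed opposite directions within the member. Its 5'seq ratio exceeded its Mature ratio by 0.46, 0.65 and 0.56 on replicates 1, 2 and 3, with a mean difference of 0.56 ± 0.07 (SE, n = 3 arrays, limma adjusted p = 0.00965). Its 3'seq ratio exceeded the Mature ratio by 0.46 ± 0.08 (adjusted p = 0.0206). Its 5'seq and 3'seq ratios differed by 0.10 ± 0.08 (adjusted p = 0.361). At n the 3'seq ratio exceeded the Mature ratio by 0.48 ± 0.09 (adjusted p = 0.0222).

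At h the 5'seq ratio exceeded the 3'seq ratio by 0.44 ± 0.07 (SE, n = 3 arrays, limma adjusted p = 0.0159), with differences of 0.56, 0.41 and 0.35. With median centring this difference was 0.31 (limma adjusted p = 0.0994). Member a fell at all 3 probe types, and its 3'seq probe fell further than its 5'seq probe, by 0.51 ± 0.13 (adjusted p = 0.0489). Its 3'seq probe also fell further than its Mature probe, with a difference of -0.65 ± 0.17 (adjusted p = 0.0489), which was -0.19, -0.94 and -0.84 by array. Under the scanner software's ratio these differences at a were 0.07 and -0.54, with adjusted p = 0.791 and 0.104. With an offset of 0 they were 0.37 and -0.62 (limma adjusted p = 0.148 and 0.0904). At a the 5'seq and Mature ratios differed by -0.14 ± 0.09 (adjusted p = 0.277), and at g the 5'seq and 3'seq ratios by 0.06 ± 0.07 (adjusted p = 0.465). At b the 3'seq and Mature ratios differed by -0.09, and by -1.01 under the scanner software's ratio. The 3'seq probe of b was not well above background in vanadium and was kept through water alone. The difference at b is therefore a description, and no p-value is read from it. Without replicate 3 none of the 10 pairs was called by limma (4 at an unadjusted p under 0.05), and without replicate 1 only 3 were. Pairs of a member share its probes, and each probe may carry its own dye effect, so a difference between types is a difference between probes first.

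The 2 spots of a probe gave a measure of technical error. Over 60 combinations of a tested probe and an array, the spots differed by a median of 0.09 in log2 ratio and by at most 0.35, at the Mature probe of c on replicate 1, where 1 spot stood at -0.34 and the other at 0.00. The median standard deviation of a tested probe between arrays was 0.07. Spot signals could differ far more than their ratios. The Mature probe of b on replicate 3 had water signals of 229.8 and 852 at its 2 spots, with ratios of -0.29 and -0.20. The 3'seq probe of h on replicate 1 had 27.8 and 101, with ratios of -0.01 and -0.13. In 9 of the 60 combinations the water signals of both spots differed by over 1.5 times. Levels of these probes are therefore less reliable than their ratios.

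Transcripts listed as targets of miR166 did not move together. The list held 5 loci recalled as the HD-ZIP III genes of rice from general knowledge. The files and the reference table used here do not pair loci with gene names, so loci are not named. These loci had 20 probes, of which 19 were tested, and 3 rose, 5 fell and 11 did not pass the test. Their median log2 ratio was -0.11. The lowest was -0.37 and the highest 0.38.

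By locus, 3 of 4 tested probes of 1 locus were lower, with a median of -0.27, and 2 of 3 probes of another were higher, with a median of 0.26. A further locus had 1 of 4 probes higher, with a median of 0.22. The remaining 2 loci had 1 of 6 and 1 of 2 probes lower, with medians of -0.13 and -0.08, and each of them also held probes on the other side of 0. Without replicate 1, and without replicate 3, 0 HD-ZIP III probes were called lower by limma (3 and 1 at an unadjusted p under 0.05), while the scanner software's ratio called 9 lower and 1 higher. Shares of 15.8% higher and 26.3% lower among the 19 probes compare with 28.9% and 21.3% of all probes.

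Of 7 loci listed as small RNA machinery, such as Dicer-like and Argonaute genes, 14 probes were tested. None rose by limma (0 at an unadjusted p under 0.05), 3 fell and 11 did not pass, with a median log2 ratio of -0.09 and a range of -0.38 to 0.10. The share called lower, 21.4%, was near the 21.3% of all probes. The 3 lower probes belonged to 2 loci, and at both loci other probes were not called. Some loci had a single probe, and 1 of these probes was fitted on 2 arrays because its spot on replicate 1 was marked as an outlier. Its log2 ratio was -0.18 ± 0.10 (SE, n = 2 arrays, limma adjusted p = 0.195).

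Replicate 1 stood apart in genes of green tissue in water, and in vanadium mainly at 1 of the 5 listed loci. Over 26 probes of 5 loci listed for photosynthesis, the water signals of replicate 1 summed to 14402, and those of replicates 2 and 3 to 4275 and 4287. The summed vanadium signals were 10069, 4272 and 4806. A single locus made up most of each vanadium sum, with probes at 3927, 2140, 1730 and 1534 on replicate 1. On replicate 1, 22 of the 26 ratios were below 0, against 9 and 10. Of these probes, 1 was detected on no array, and 10 were tested, of which 3 were higher and 0 lower by limma (1 lower at an unadjusted p under 0.05). The share called higher was 30%, near the 28.9% of all probes. All 3 higher probes belonged to the locus that made up most of the vanadium sums. The 3 loci listed as root genes were detected in both channels of every array, with summed signals of 135561 to 301530. Of their 4 probes, 3 were lower and 1 was higher under vanadium. These shares, 75% and 25%, stand against 21.3% and 28.9% of all probes, but rest on 4 probes. The higher probe and 1 of the lower probes belong to the same locus, with log2 ratios of 0.68 and -0.28. That higher probe made up most of each summed signal, such as 225167 of 301530 in water on replicate 1. Without replicate 1, the log2 ratios of the tested miR166 probes kept their signs, and 9 were called lower and 3 higher. The 9 include the 3'seq probe of b, which was kept through its water channel alone.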

How the data were processed

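Per the file headers, Agilent Feature Extraction 10.7.1.1 wrote the deposited array files. They hold spot and local background intensity without normalization, a processed intensity that the software background-subtracted and dye-normalized, and, computed from the latter, the log10 of the red to green ratio. That deposited log10 ratio equalled the ratio of processed intensities at 100% of spots well above background in both channels, within a tolerance of 0.001. Red over green log2 ratios fill the value table deposited by the authors, with medians of -0.05, -0.19 and -0.21 on replicates 1, 2 and 3. No header or label states further steps.

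Median spot and background signals were used, with no mean spot signal analysed here. The background correction was normexp (offset 50), which draws the ratios of dim spots toward 0. Loess within arrays followed, giving controls a weight of 0, in limma 3.58.1 under R 4.3.3. Outlier spots were left out, which concerned 1012, 233 and 176 spots outside the controls but no miR166 spot, and no spot was saturated. Replicate spots were averaged. The filter asked for at least 1 spot well above background on every array in the same channel, which 30922 probes met, and 113 of these had values on fewer than 2 arrays and were not tested. Mean log2 ratios were tested against 0 with lmFit and eBayes (2-sided, Benjamini-Hochberg adjusted p under 0.05). The steps were tested on simulated data. With 3 arrays, their number limits the precision.

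Every miR166 probe was accounted for, those detected throughout in at least 1 channel with their values and the others by counts. Of the loci in the other lists, any with a kept probe could be described. Members and lists were chosen with earlier results of these data known. The pairing of vanadium and water RNA comes from the shared array. Channel deviations from the treatment means correlated across probes at 0.761 for replicate 1, 0.610 for replicate 2 and 0.771 for replicate 3, while no correlation between different arrays exceeded 0.0396. The deviations of a channel cancel at each probe, which pushes the correlations between different arrays below those within. Both channels also share their spots, so these correlations do not test a pairing of the RNA. Alternatives were other background corrections, normalizations and filters, the deposited ratios, outlier spots kept, no pairing, slide as a block and leaving out each replicate.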

Additional observations from a re-analysis of the deposited data

How the results depend on the processing

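None of the 20 tested miR166 probes changed sign under any alternative run. That was fixed for other filters, outlier spots kept, no pairing and slide as a block, which return the same estimates. The authors' value table repeats the scanner software's ratio. Of 239 single values, 196 kept their side of the threshold, while 40 lost the call and 3 gained one. Calls were lost mainly with the channels fitted without the pairing by array (no replicate block, 12 probes), with median centring (10) and without replicate 3 (8). Without the pairing 3 miR166 probes were called lower and 0 higher, in place of 11 and 4. By type these were 0 Mature, 1 5'seq and 2 3'seq probes lower and 0 5'seq probes higher. Both the 3 and the 11 include the 3'seq probe of b, which was kept through its water channel alone. In the same fit, 0 HD-ZIP III probes were lower and 0 higher, and 0 small RNA machinery probes were lower, with 1, 0 and 2 at an unadjusted p under 0.05. With median centring 4 miR166 probes were lower and 1 higher, namely 2 Mature, 1 5'seq and 1 3'seq lower and 1 5'seq higher. HD-ZIP III probes were then 1 lower and 0 higher (0 at an unadjusted p under 0.05) and machinery probes 1 lower. The scanner software's log ratio gave 9 lower and 1 higher HD-ZIP III probes and 5 lower machinery probes. The authors' value table gave 9 and 1, and 6 lower machinery probes. An offset of 0 gave 1 higher HD-ZIP III probe. Slide as a block gave 5, and called the 3'seq probe of n, so that 1 3'seq probe was higher. The other calls gained were of the 3'seq probe of h, lower by the scanner software's ratio and the authors' table. The slide block cannot shift the estimate of a probe, because its term was centred, and it left 1 residual degree of freedom. Replicates 2 and 3, which shared a slide, are the fit without replicate 1. Leaving out 1 replicate at a time gave 5 to 9 lower and 2 to 3 higher miR166 probes, namely 2 to 4 Mature lower, 1 to 2 5'seq lower, 2 to 3 5'seq higher and 2 to 3 3'seq lower. The same left 0 to 4 lower and 0 to 3 higher HD-ZIP III probes, 1 to 3 lower machinery probes, and 0 to 6 of the 10 pairs of probe types called. In each of these fits the lower miR166 probes include the 3'seq probe of b. The fits rest on 2 arrays and are less sensitive by construction. The cause of the other changes was not tested. Requiring every spot to be well above background left 17 probes detected throughout in vanadium and 18 in water, and counting positive and significant spots gave 27 and 28. Dim signals limit the 19 probes that were not kept.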

Other observations

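Among the 19 miR166 probes left out of the test because they were dim, 5 were detected on some array. The 5'seq probe of member b came closest to the filter, with water signals of 51.4, 29.0 and 26.8 and vanadium signals of 33.2, 15.5 and 13.8 on replicates 1, 2 and 3. Its log2 ratios were -0.15, -0.30 and -0.33, and in the fit without the filter it was the 1 further miR166 probe called lower, making 12. The 12 include the 3'seq probe of b. The 14 probes detected on no array had log2 ratios between -0.30 and 0.23.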
